A study of Oryza sativa with 12 samples.

Results

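Late embryogenesis abundant (LEA) proteins, dehydrins and other small proteins of dry or salty tissue were followed in rice (Oryza sativa) roots given salt, spermidine or both. Members were found by words. A unigene, which is a cluster of assembled transcripts, was taken where its best hit among NCBI's non-redundant proteins was a protein of Oryza and where that hit or its Swiss-Prot hit was described as a late embryogenesis abundant protein, a dehydrin, SENESCENCE-ASSOCIATED GENE 21 (SAG21), an abscisic stress-ripening protein, a salt stress-induced protein or a water stress-inducible protein, among other words. The words took 53 of 182689 unigenes, and 68051 of these 182689 had an Oryza hit. Of the 53, 30 averaged 1 FPKM or more across the 12 libraries and were tested, and 23 did not. FPKM counts fragments relative to transcript length and library size, so levels of different unigenes can be set beside each other only per length.

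The study sequenced poly-A RNA from roots of wild-type rice and made 3 libraries for each of 4 groups. A group of roots was left untreated, and the other 3 groups spent 72 hours in 0.1 mM spermidine, in 100 mM NaCl or in the combination of the same agents. No time is stated for the untreated roots, so in comparisons with them treatment and time cannot be told apart. No cultivar is given, and it is not said whether libraries of a group are separate cultures. The p-values therefore describe the spread among these samples alone, and that spread may be technical. Spermidine is a small cationic metabolite, one of the polyamines that plants produce.

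LEA proteins are small, hydrophilic and often without fixed structure, and accumulate in drying seeds and in leaves and roots short of water, where they are thought to protect membranes and other proteins. Dehydrins are the LEA group with lysine-rich repeats, and many rice dehydrin genes are switched on by abscisic acid (ABA), the hormone of water shortage. Abscisic stress-ripening (ASR) proteins, first described in tomato, are small proteins of the same conditions, and the salt stress-induced protein SALT is a mannose-binding lectin of the jacalin type known from salt-treated rice.

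By description, 9 members were dehydrins or Rab proteins (6 tested), 30 were LEA or SAG21 type (12 tested), 3 were ASR proteins (3 tested) and 9 were SALT (7 tested). Several unigenes carried the same best hit and can be parts of 1 gene or share reads, so they are numbered here and are not separate genes. One tested member, LOC4334748, entered through a Swiss-Prot hit to the cotton protein Lea14-A, while its Pfam domain was a YacP-like NYN domain and not an LEA domain. It is kept under the rule and named by its hit.

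Summed FPKM ran from 1312574 to 1371599 per library, relative depth judged from low values from 0.915 to 1.08, and the lowest correlation of a library with another of its group from 0.85 to 0.929. The summed level of 39 root marker unigenes was 15422 ± 2365 FPKM (SD, n = 3) in untreated roots, 13965 ± 373 under spermidine, 9996 ± 474 with NaCl and 13998 ± 2539 with both. The most abundant, with a hit to nicotianamine synthase 1, averaged 3870 FPKM in untreated roots and 1770 with NaCl. The 36 tested had a median log2 change with NaCl of -0.058, beside -0.129 over all unigenes. By the test described below, 5 were higher and 9 lower, where 10% and 12.9% of all unigenes were. The summed level of 22 organelle transcripts was 149 ± 18.5, 186 ± 39.6, 31.8 ± 6.28 and 141 ± 49.7 FPKM, in the order untreated, spermidine, NaCl and both. Most of it came from 1 unigene, described as NADH-ubiquinone oxidoreductase chain 1-like, at 137, 169, 20.3 and 129 FPKM. The 37 shoot marker unigenes summed to 46.7 ± 1.86 FPKM in untreated roots and stood apart in 2 libraries, at 169 in spermidine library 1 and 292 in NaCl library 3. The 15 seed marker unigenes, which bear on LEA proteins as seed products, summed to 63.1 ± 4.78, 61.8 ± 6.13, 73.6 ± 5.36 and 81.1 ± 11 FPKM. None of these marker unigenes was at 0 in every library. The part of these differences in the results was not tested. In whole roots, fewer cells of a type and less RNA per cell cannot be told apart.

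With NaCl alone, most called dehydrin and LEA unigenes were higher and most called SALT unigenes lower. Of the 18 dehydrin and LEA unigenes tested, 7 rose, 1 fell and 10 were not called. The 9 members that rose were 2 SAG21 unigenes, 2 Lea14-A unigenes, 1 ASR3 unigene, 1 unigene each of DHN1 and dehydrin 13, OsLEA14 and 1 low SALT unigene. The 7 that fell were 5 SALT unigenes, the most abundant ASR3 unigene and 1 Lea5-D unigene. These 16 of 30 calls came from limma on log2(FPKM + 1), with Benjamini-Hochberg adjusted p below 0.05 over all 65836 unigenes tested, and 22.9% of those unigenes were called in the same comparison (10% higher and 12.9% lower), or 27.1% of those with an Oryza hit. Over all unigenes the calls were 6586 higher and 8497 lower, and 7898 higher and 5918 lower after scaling libraries by median ratios, which moved the median change of all unigenes from -0.129 to -0.021. The median log2 change of the 30 members was -0.05 in the first case and 0.09 in the second. Of the 9 that rose, OsLEA14 and SALT unigene 4 reached the 1 FPKM needed for testing only through groups with NaCl, so they lend no support to the count.

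**Figure D1:**
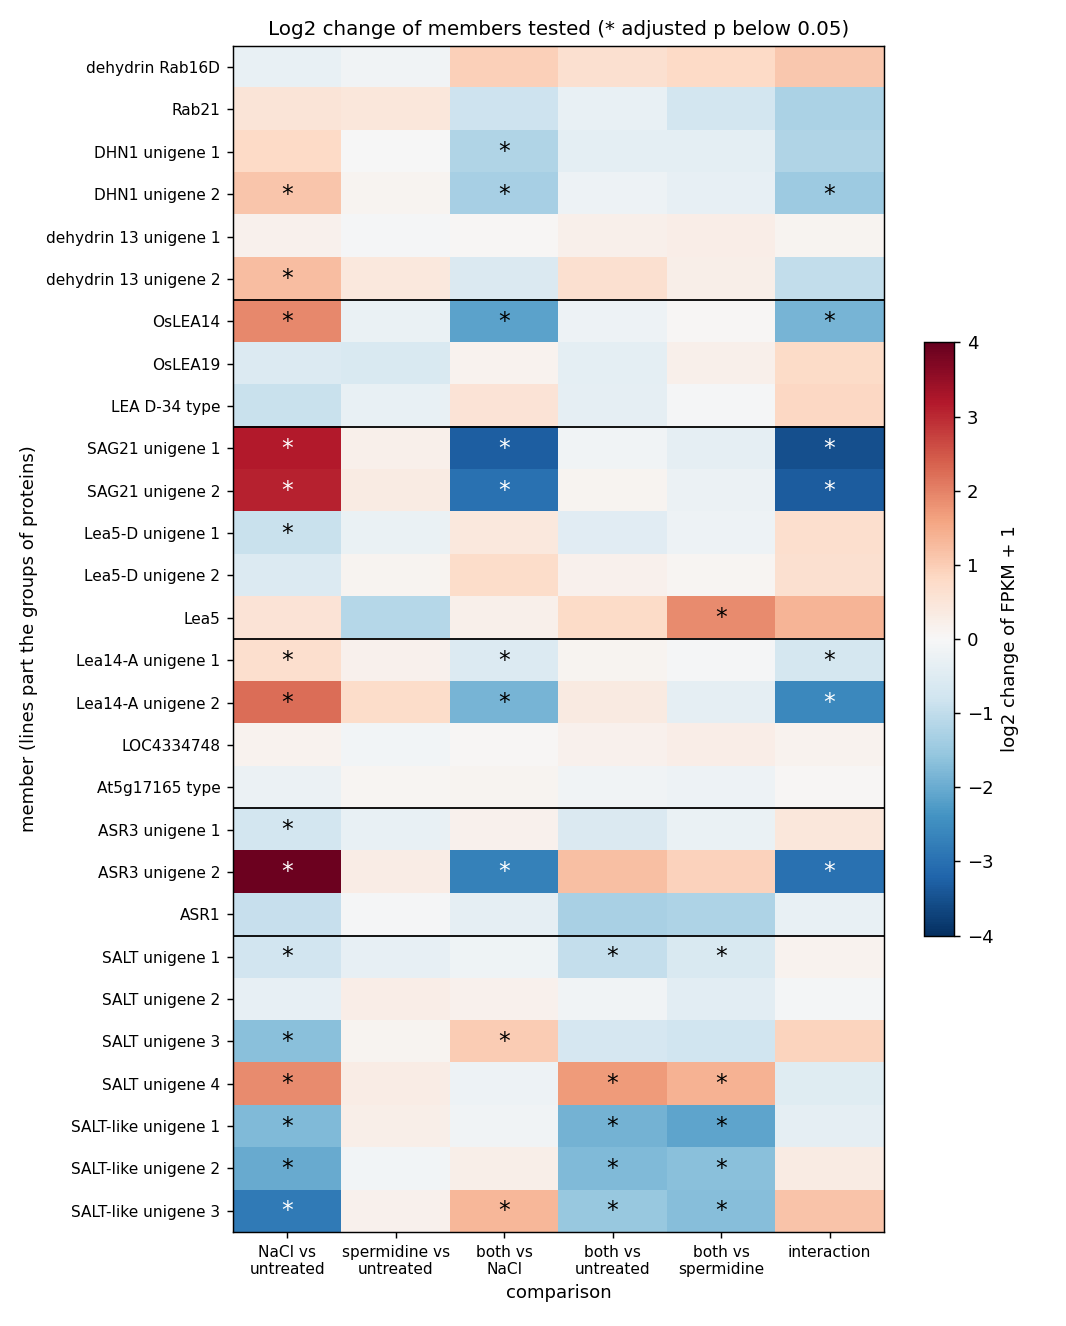
Heat map of tested members (rows, with lines between roles) in the 6 comparisons (columns), with colour for the log2 change of FPKM + 1 (red higher, blue lower) and a star at a limma adjusted p below 0.05. The SAG21, Lea14-A, OsLEA14 and second ASR3 and DHN1 rows are red with NaCl and blue for both treatments against NaCl and in the interaction, and the SALT-like rows are blue with NaCl with or without spermidine.

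Among dehydrins, 2 of 6 tested unigenes rose with NaCl and none fell. DHN1 unigene 2 (Cluster-52034.84436), with its best hit to the rice dehydrin DHN1, stood at 96.98, 83.88 and 86.38 FPKM in untreated roots, 105.52, 94.89 and 89.56 with spermidine, 251.5, 163.59 and 180.1 with NaCl, and 114.7, 53.54 and 72.57 with both. Every NaCl library lay above all 9 others. The group mean was 2.23 times the untreated one, a log2 change of 1.12 ± 0.242 (SE, limma adjusted p = 0.00726).

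DHN1 unigene 1, with the same best hit, held 140.52, 97.81 and 120.62 FPKM in untreated roots and 261.6, 176.31 and 191.24 with NaCl. These groups did not overlap either, but its change of 0.80 ± 0.265 missed the threshold (limma adjusted p = 0.0541). It passed in 6 alternatives, among them median-ratio scaling (0.0366) and leaving out spermidine+NaCl library 1 (0.0141). With spermidine alone it held 116.43, 134.32 and 102.69 FPKM, and with both 138.47, 63.58 and 80.34, so that roots with both lay below every NaCl library.

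Dehydrin 13 unigene 2 stood at 16.81, 18.28 and 18.37 FPKM in untreated roots, at 22.94, 31.37 and 19.35 with spermidine, at 43.37, 38.36 and 47.42 with NaCl, and at 27.59, 21.3 and 39.33 with both. All 3 NaCl libraries were above all untreated ones, by a log2 change of 1.22 ± 0.215 (limma adjusted p = 0.00235). The roots with both treatments spread widely, and their highest library lay within the NaCl range. Their change from NaCl was -0.57 (limma adjusted p = 0.103, or 0.0296 without spermidine+NaCl library 3). The more abundant dehydrin 13 unigene 1 ran from 164.92 to 205.28 FPKM in untreated roots, from 149.95 to 202.38 with spermidine, from 175.76 to 228.25 with NaCl and from 182.62 to 248.94 with both, and its groups overlapped throughout.

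The Rab dehydrins, named for their response to ABA in rice, were near the lower limit. Rab21, the water stress-inducible protein, held 0.81, 0.44 and 2.18 FPKM in untreated roots, 4.35, 2.95 and 0 with spermidine, 0.78, 0 and 12.94 with NaCl, and 0.42, 1.24 and 0.44 with both. Its highest value was in NaCl library 3 and its second highest in spermidine library 1, the 2 libraries with the highest summed shoot markers, and the part of those markers was not tested. Dehydrin Rab16D stayed between 0 and 3.58 FPKM in all libraries. In the RefSeq gene table, RAB16D lies next to RAB16C, and RAB16B next to RAB21, on chromosome 11. Neither Rab unigene was called in any comparison, and a value of 0 is given only as listed.

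Of the group 3 and seed maturation LEA proteins, OsLEA14 was the member that changed. It was listed at 0.52, 0.35 and 0.34 FPKM in untreated roots, 0.24, 0.18 and 0.06 with spermidine, 5.78, 2.8 and 4.68 with NaCl, and 0.41, 0.24 and 0 with both. Only the NaCl libraries exceeded 1 FPKM, and without that group its mean was 0.26 FPKM, so it was tested only because of the group where it was high. Its log2 change of 1.91 ± 0.284 is therefore mainly a description; with no filter on low values the limma adjusted p was 0.000716. The log2 values understate changes at such low levels, because 1 FPKM was added first. OsLEA19, the classic rice group 3 protein also called OsLEA3-1, held 5.85, 1.92 and 7.69 FPKM in untreated roots, 3.16, 2.63 and 2.18 with spermidine, 3.29, 1.93 and 3.45 with NaCl, and 3.37, 2.81 and 3.52 with both. Untreated library 2 was the lowest of all 12, and the groups with NaCl lay inside the untreated range. It was not called, although without untreated library 2 it was lower with NaCl, with a log2 change of -1.01 (limma adjusted p = 0.0133), and the interaction defined below was 1.23 (0.0356). The D-34 type seed maturation unigene ran from 2.32 to 3.02 FPKM in untreated roots and from 0.53 to 1.43 with NaCl. Its change of -0.88 was not called (limma adjusted p = 0.0611, or 0.023 without spermidine library 1).

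SAG21, a mitochondrial LEA5-type protein known in Arabidopsis for its link to oxidative stress and senescence, gave the clearest changes. SAG21 unigene 1 (Cluster-52034.69256) stood at 11.6, 16.13 and 18.03 FPKM in untreated roots, 18.37, 22.36 and 13.11 with spermidine, 173.5, 106.3 and 154.53 with NaCl, and 20.12, 8.65 and 14.2 with both. The NaCl libraries were all above 100 FPKM and the other 9 all below 25. The NaCl mean of 145 ± 34.6 FPKM (SD, n = 3) was 9.49 times the untreated mean of 15.3 ± 3.30, a log2 change of 3.16 ± 0.306 (limma adjusted p = 5.94e-05).

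SAG21 unigene 2, with the same Oryza hit (Lea5-D), was lower but had the same pattern. It held 3.34, 3.31 and 1.45 FPKM in untreated roots, 3.88, 5.36 and 1.99 with spermidine, 34.94, 25.29 and 29.07 with NaCl, and 4.84, 2.79 and 1.62 with both. Its NaCl mean of 29.8 ± 4.86 FPKM was 11 times the untreated one (log2 change 3.09 ± 0.356, limma adjusted p = 0.000173). Both unigenes kept these calls in every alternative tried.

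The other unigenes with a Lea5-type description did not follow them. Lea5-D unigene 1 fell with NaCl, from 13.38, 12.52 and 15.35 FPKM to 5.97, 6.32 and 8.95, a log2 change of -0.88 ± 0.227 (limma adjusted p = 0.0181). With spermidine it held 9.08, 11.81 and 12.99 FPKM and with both 14.18, 8.14 and 7.68. The untreated and NaCl groups did not overlap, but the call was lost without untreated library 1 or 3 or without NaCl library 1 or 2 (adjusted p = 0.052, 0.064, 0.0715 and 0.06).

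Lea5-D unigene 2 held 48.03, 44.72 and 37.77 FPKM in untreated roots, 47.21, 51.23 and 41.29 with spermidine, 18.71, 48.52 and 26.91 with NaCl, and 47.23, 41.28 and 59.63 with both. NaCl library 2 lay with the untreated libraries and the other NaCl libraries below them. It was not called, but without NaCl library 2 it was lower with NaCl (-0.92, limma adjusted p = 0.011) and higher with both than with NaCl (1.09, limma adjusted p = 0.00735), with an interaction of 0.99 (0.0471). The unigene described as Lea5 held 3.93, 2.4 and 6.67 FPKM in untreated roots, 2.32, 1.18 and 0.63 with spermidine, 5.61, 6.45 and 7.21 with NaCl, and 6.72, 9.87 and 6.37 with both. It was higher in roots with both than in roots with spermidine alone, by 1.90 ± 0.322 (limma adjusted p = 0.00606), and its spermidine libraries were all below its untreated ones, by -1.15 (limma adjusted p = 0.122). Its interaction of 1.35 was not called (limma adjusted p = 0.0903, or 0.0476 without untreated library 2).

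Lea14-A, a LEA protein first described in cotton, is of the less common hydrophobic kind. Lea14-A unigene 1 stood at 79.7, 76.96 and 83.86 FPKM in untreated roots, 95.87, 89.36 and 85.19 with spermidine, 141.59, 127.06 and 115.35 with NaCl, and 100.2, 78.55 and 84.03 with both. The NaCl libraries were the 3 highest of 12, with a mean 1.60 times the untreated one (log2 change 0.66 ± 0.105, limma adjusted p = 0.00121).

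Lea14-A unigene 2 held 4.5, 5.28 and 1.93 FPKM in untreated roots, 9.91, 8.85 and 3.37 with spermidine, 23.64, 19.06 and 19.71 with NaCl, and 9.82, 1.92 and 5.9 with both. Again the NaCl libraries lay above all others, by a log2 change of 2.22 ± 0.493 from untreated roots (limma adjusted p = 0.00857). The remaining 2 tested LEA unigenes were not called. LOC4334748 stayed between 39.14 and 52.37 FPKM in all 12 libraries but passed without untreated library 3, for both treatments against spermidine (0.27, limma adjusted p = 0.0452). The unigene with its best hit to the Arabidopsis LEA protein At5g17165 ran from 298.41 to 342.33 FPKM in untreated roots and from 258.66 to 277.54 with NaCl. Its groups did not overlap, but its log2 change of -0.22 missed the threshold (limma adjusted p = 0.151). The change was -0.08 with median-ratio scaling (limma adjusted p = 0.686), and it passed after quantile normalization (-0.40, limma adjusted p = 0.00711) and with Oryza-hit unigenes alone (-0.32, limma adjusted p = 0.02).

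**Figure D2:**
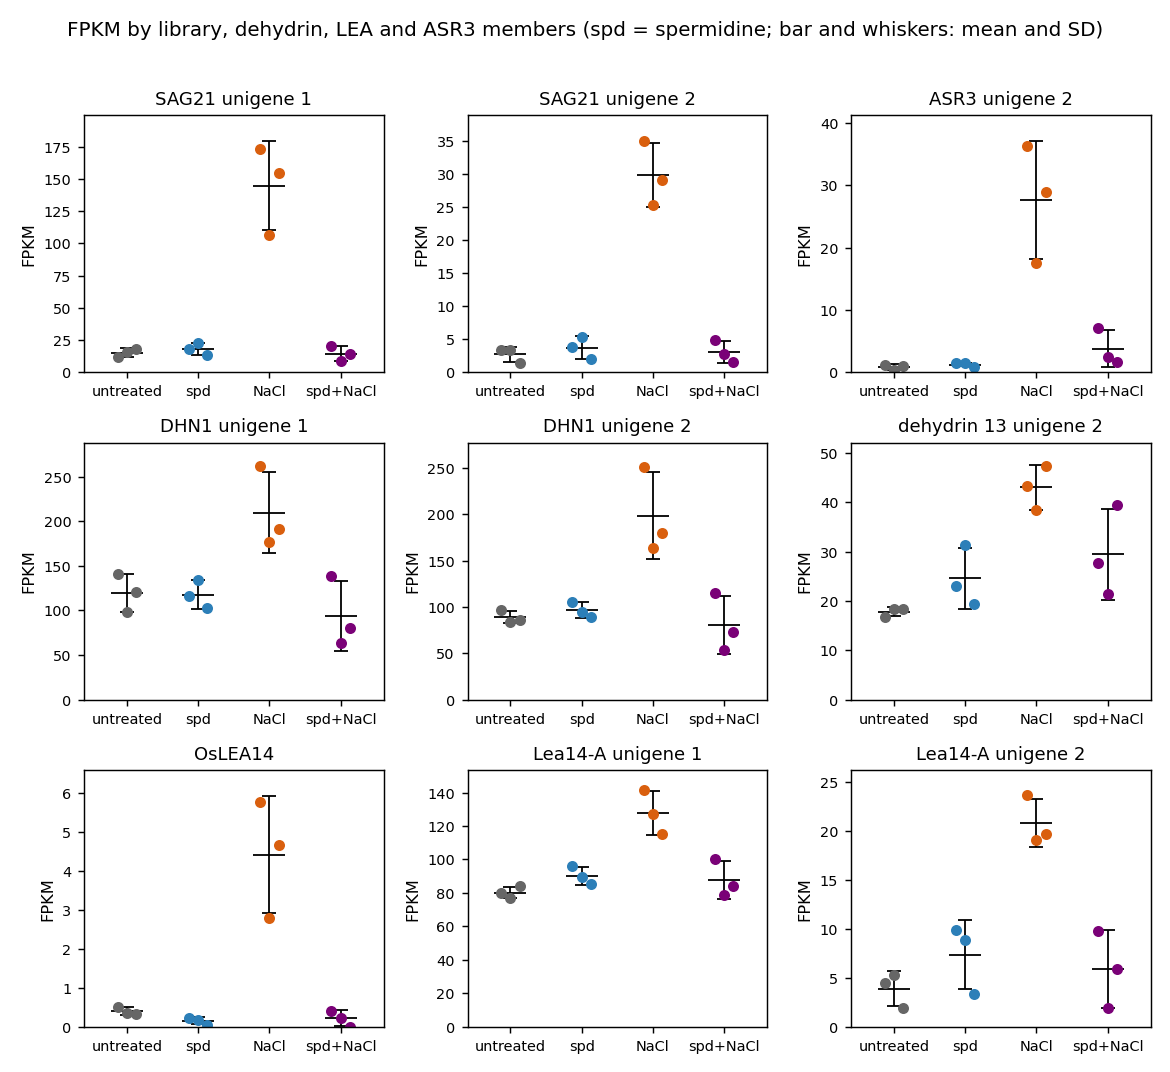
FPKM (vertical axis, linear, own scale in each panel) of 9 dehydrin, LEA and ASR3 unigenes in each library by group, with bars at the mean and whiskers of 1 SD (n = 3). The NaCl points lie above those of all other groups in each panel except dehydrin 13 unigene 2, where 1 spermidine+NaCl library at 39.33 FPKM reaches into the NaCl range.

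The ASR proteins, of which a tomato member binds zinc and DNA, went both ways under the same description. ASR3 unigene 1 was among the most abundant members, at 1049.9, 785.48 and 842.5 FPKM in untreated roots, 792.64, 716.77 and 667.8 with spermidine, 582.89, 477.68 and 553.98 with NaCl, and 727.99, 546.16 and 539.64 with both. Every NaCl library lay below every untreated and spermidine library, and the log2 change with NaCl was -0.72 ± 0.144 (limma adjusted p = 0.00485). Roots with both treatments were also below all untreated libraries, by -0.56 (limma adjusted p = 0.0516, called in 5 alternatives, with adjusted p from 0.0143).

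ASR3 unigene 2 went from 1.24, 0.35 and 1.03 FPKM in untreated roots and 1.42, 1.44 and 0.9 with spermidine to 36.35, 17.59 and 28.98 with NaCl, and stood at 7.17, 2.47 and 1.68 with both. Roots with both lay between the groups without salt and the NaCl group and overlapped neither. Its NaCl mean of 27.6 ± 9.45 FPKM was 31.6 times the untreated 0.873 ± 0.465, a log2 change of 3.91 ± 0.402 (limma adjusted p = 8.58e-05). In FPKM the loss of unigene 1 exceeded the gain of unigene 2, and the summed level of the 3 ASR unigenes was 905 ± 146 in untreated roots, 739 ± 64.7 under spermidine, 571 ± 66.0 with NaCl and 612 ± 111 with both. ASR1 ran from 5.86 to 19.39 FPKM in untreated roots, from 4.37 to 21.83 with spermidine, from 3.36 to 8.56 with NaCl and from 2.37 to 5.16 with both, with no call.

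Of the 7 SALT lectin unigenes tested, 5 fell with NaCl and 1 was higher. SALT-like unigene 1 (Cluster-52034.65693) stood at 406.14, 433.25 and 466.83 FPKM in untreated roots, 634.11, 409.69 and 503.62 with spermidine, 172.26, 106.31 and 115.39 with NaCl, and 95.15, 113.6 and 144.36 with both. Each of the 6 libraries without NaCl lay far above each of the 6 with it. The untreated mean of 435 ± 30.4 FPKM was 3.32 times the NaCl mean of 131 ± 35.7, a log2 change of -1.75 ± 0.214 (limma adjusted p = 0.000252).

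SALT-like unigene 2 went from 59.31, 47.57 and 58.11 FPKM in untreated roots and 57.14, 37.33 and 60.79 with spermidine to 12.17, 12.81 and 13.62 with NaCl and 9.73, 16.81 and 21.49 with both. The untreated mean was 4.27 times the NaCl mean (log2 change -2.01 ± 0.256, limma adjusted p = 0.000325). SALT-like unigene 3 held 7.85, 5.98 and 6.98 FPKM in untreated roots, 8.27, 5.83 and 10.47 with spermidine, 0, 0.28 and 0.09 with NaCl, and 0.59, 2.95 and 2.45 with both. It was close to 0 with NaCl alone (log2 change -2.82 ± 0.321, limma adjusted p = 0.000161), and roots with both lay between, above every NaCl library and below every library without salt.

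SALT unigene 1, with its best hit to SALT itself, stood at 256.62, 303.48 and 312.49 FPKM in untreated roots, 277.6, 202.21 and 222.11 with spermidine, 145.12, 178.57 and 192.75 with NaCl, and 161.08, 141.19 and 149.26 with both. No library with NaCl reached any library without it, and the log2 change was -0.76 ± 0.139 (limma adjusted p = 0.00301). SALT unigene 3 held 2.83, 2.33 and 2.79 FPKM in untreated roots, 3.26, 3.44 and 2.21 with spermidine, 0, 0.14 and 0.29 with NaCl, and 1.63, 1.62 and 0.72 with both, so that both groups without salt were highest, NaCl alone lowest and both treatments between (log2 change with NaCl -1.68 ± 0.229, limma adjusted p = 0.000499). The groups with NaCl averaged 0.733 FPKM, so this unigene was tested only because of the groups without it. It therefore lends no support to the count of SALT unigenes that fell.

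SALT unigene 4 was the exception in direction. It was listed at 0, 0.77 and 0.38 FPKM in untreated roots, 1.21, 0.35 and 0.5 with spermidine, 3.42, 5.53 and 3.28 with NaCl, and 3.69, 4.52 and 2.22 with both. All 6 libraries with NaCl exceeded the 6 without. The groups without NaCl averaged 0.535 FPKM, so the unigene was tested only because of the groups where it was high, and its log2 change with NaCl of 1.89 ± 0.309 is mainly a description (limma adjusted p = 0.00293 with no filter on low values). SALT unigene 2 ran from 18.69 to 28.72 FPKM in untreated roots, from 26.21 to 33.01 with spermidine, from 17.69 to 20.5 with NaCl and from 17.13 to 25.88 with both, without a call.

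**Figure D3:**
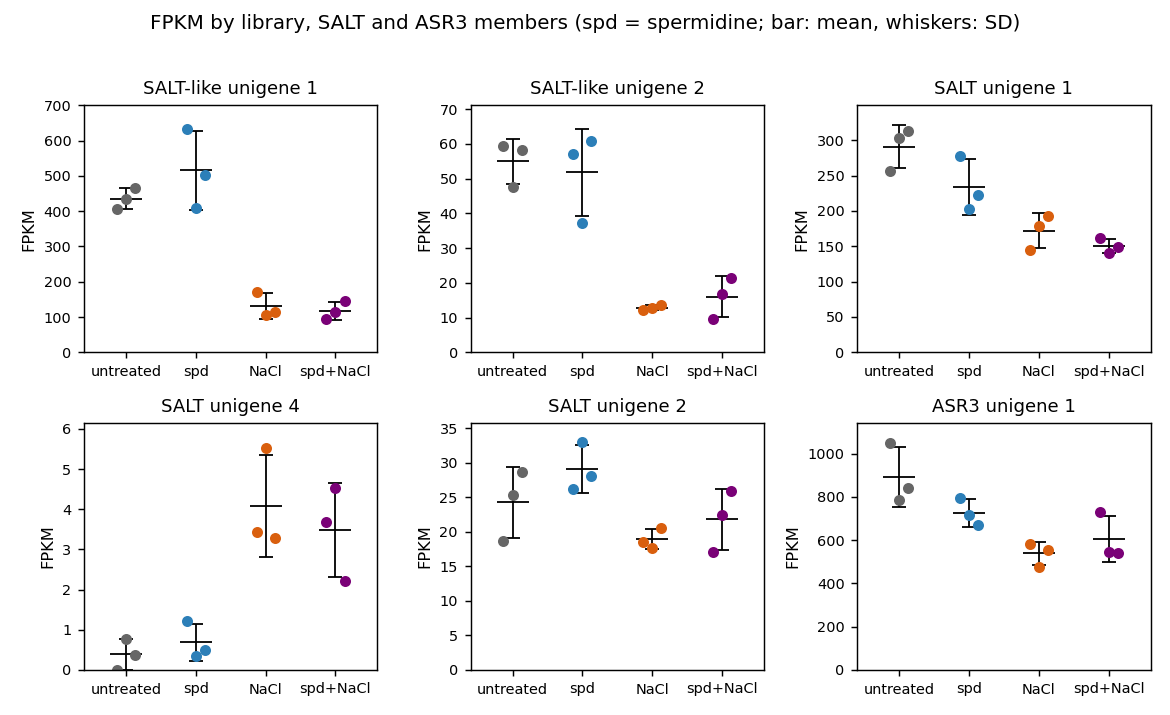
FPKM (vertical axis, linear, own scale in each panel) of 5 SALT unigenes and ASR3 unigene 1 in each library by group, with bars at the mean and whiskers of 1 SD (n = 3). In the SALT-like and SALT unigene 1 panels the 6 libraries with NaCl lie below the 6 without, and in the SALT unigene 4 panel they lie above. For SALT unigene 2 the untreated and NaCl groups overlap.

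Spermidine without salt called no member. limma gave 0 of 30 at an adjusted p below 0.05, where 2.55% of all unigenes tested (2.05% higher and 0.509% lower) and 0.294% of those with an Oryza hit were called. At an unadjusted limma p below 0.05 there were 3 members, beside 8571 of all 65836 unigenes. The median log2 change of the members was 0.10, and 0 over all unigenes. Without untreated library 2, OsLEA19 was lower with spermidine (-1.09, limma adjusted p = 0.0414), 1 of 2 calls then made.

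With spermidine added to salt, most LEA-type members that rose with NaCl were lower. Against NaCl alone, 8 members were lower with both treatments and 3 higher, beside 15.8% of all unigenes tested (8.63% higher and 7.18% lower) and 19.3% of those with an Oryza hit. An unadjusted limma p below 0.05 was reached by 13 members, beside 19475 of all 65836 unigenes. The direction over all unigenes turned with median-ratio scaling, from 5679 higher and 4724 lower to 2719 and 5503. With the 41491 Oryza-hit unigenes scaled and tested alone, 7869 were higher and 3806 lower. The same unigenes had 4338 and 3674 in the fit over all unigenes. The members' counts under these scalings were 2 higher and 8 lower, and 3 and 8. The 8 were both SAG21 unigenes, both Lea14-A unigenes, both DHN1 unigenes, OsLEA14 and ASR3 unigene 2. The 3 higher included SALT unigene 3 and SALT-like unigene 3. This comparison shares its NaCl libraries with that of NaCl against untreated roots, so a high or low NaCl library moves both.

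SAG21 unigene 1 had a mean of 14.3 ± 5.74 FPKM with both treatments, and the NaCl mean was 10.1 times higher (log2 change -3.29 ± 0.306, limma adjusted p = 8.19e-05). SAG21 unigene 2 fell to 3.08 ± 1.63 FPKM (-2.98 ± 0.356, limma adjusted p = 0.000369), and ASR3 unigene 2 to 3.77 ± 2.97 FPKM (-2.70 ± 0.402, limma adjusted p = 0.00139). These 3 kept their calls in every alternative tried. OsLEA14, tested only because of its NaCl values, was lower by -2.13 (limma adjusted p = 0.000614 with no filter on low values).

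DHN1 unigene 2 was lower by -1.34 ± 0.242 (limma adjusted p = 0.0043) and DHN1 unigene 1 by -1.20 ± 0.265 (0.0123). The latter call was lost without NaCl library 1 (0.0567) or spermidine+NaCl library 2 (0.0507). Lea14-A unigene 1 was lower by -0.54 ± 0.105 (limma adjusted p = 0.00602) and Lea14-A unigene 2 by -1.85 ± 0.493 (0.0295). The call of Lea14-A unigene 2 was lost without any of the NaCl libraries or without spermidine+NaCl library 2 or 3 (adjusted p 0.0634 to 0.0996). Of the members that were higher, SALT unigene 3 changed by 1.0 ± 0.229 (limma adjusted p = 0.0148) and SALT-like unigene 3 by 1.32 ± 0.321 (limma adjusted p = 0.0198). Both were at or below 3 FPKM in all 6 libraries. The first lost its call without NaCl library 1 (0.0522) or spermidine+NaCl library 2 (0.0504), and the second without NaCl library 1 or 3 or spermidine+NaCl library 2 or 3 (0.0626 to 0.0811). The count of 11 calls was 6 without NaCl library 1, 6 without spermidine+NaCl library 2, and 4 where the fit held only these 2 groups.

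The order of libraries within the treated groups was similar across the members that rose with NaCl. Of those 9, NaCl library 1 was the highest NaCl library for 7 and NaCl library 2 the lowest for 7. Spermidine+NaCl library 1 was the highest of its group for 7 of the 9 and the lowest for none. These members were therefore not separate observations of the treatments. The SAG21 unigenes among them also share a best hit, as do the Lea14-A unigenes. The order was not counted over all unigenes, so it is not shown to be particular to these members.

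**Figure D4:**
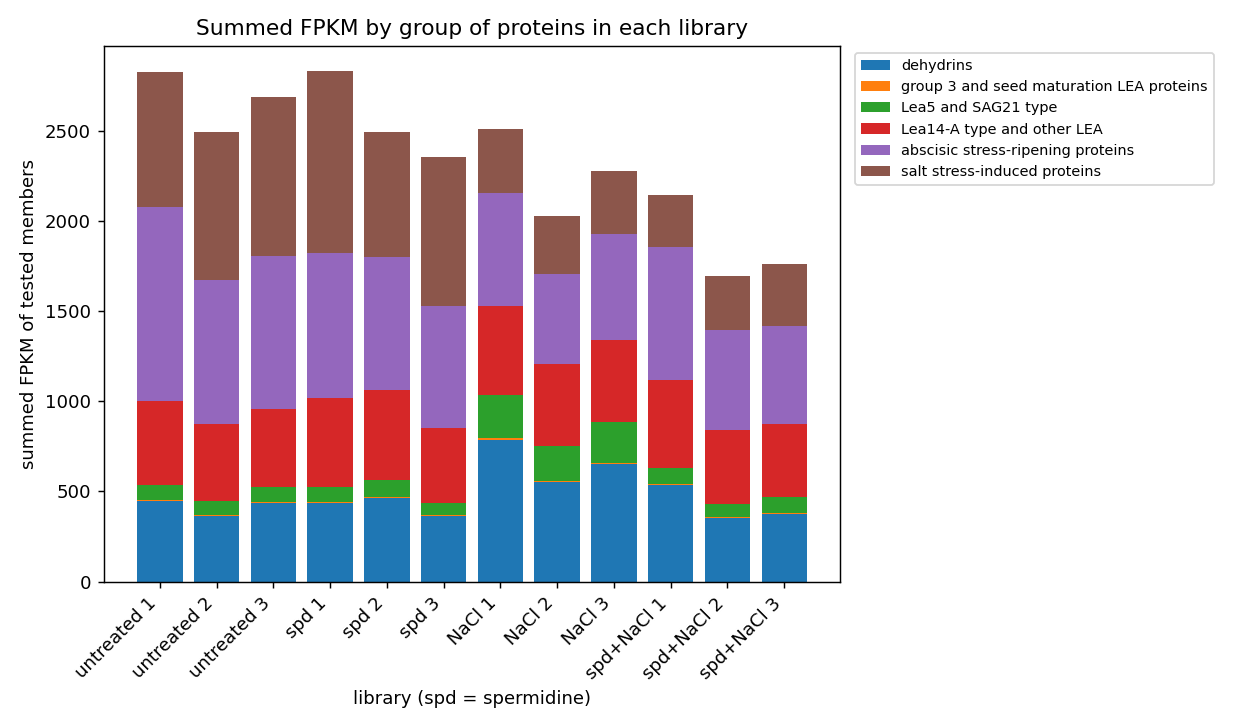
Summed FPKM of tested members (vertical axis, linear) by group of proteins in each of the 12 libraries (horizontal axis). The SALT sum is lower in the 6 libraries with NaCl, at 340 ± 16.1 and 313 ± 29.9 FPKM against 816 ± 62.5 in untreated roots, and the dehydrin and the Lea5 and SAG21 sums are highest with NaCl alone.

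Summed over the tested dehydrins, the level was 415 ± 43.1 FPKM in untreated roots, 422 ± 54.1 under spermidine, 664 ± 116 with NaCl and 421 ± 98.2 with both. The Lea5 and SAG21 type summed to 79.5 ± 0.645, 80.9 ± 11, 219 ± 23.8 and 84.4 ± 12 FPKM in the same order. For SALT the 4 sums were 816 ± 62.5, 842 ± 158, 340 ± 16.1 and 313 ± 29.9 FPKM, with NaCl low whether or not spermidine was present. All 53 members together, those not tested included, summed to 2894 ± 133 FPKM in untreated roots, 2831 ± 264 under spermidine, 2537 ± 231 with NaCl and 2195 ± 232 with both. These sums are descriptions of abundance per length and were not tested.

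Whether the response to salt differed with spermidine was tested as the interaction, the change with NaCl in the presence of spermidine minus the change without it. limma called 7 of 30 members, all of them lower, beside 10.9% of all unigenes tested (4.18% higher and 6.68% lower) and 12.1% of those with an Oryza hit. Without adjustment, 13 members had a limma p below 0.05, beside 16183 of all 65836 unigenes. Over all unigenes, 2752 were higher and 4400 lower, against 1405 and 4980 with median-ratio scaling. With the 41491 Oryza-hit unigenes scaled and tested alone, 3670 were higher and 3051 lower. The same unigenes had 2213 and 2814 in the fit over all unigenes. The members' counts under these scalings were 0 higher and 8 lower, and 0 and 9. The difference was -3.50 ± 0.432 on the log2 scale for SAG21 unigene 1 (limma adjusted p = 0.00089), -3.32 ± 0.503 for SAG21 unigene 2 (0.00258) and -2.99 ± 0.568 for ASR3 unigene 2 (0.00829). It was -0.71 ± 0.148 for Lea14-A unigene 1 (limma adjusted p = 0.0128), -1.85 ± 0.402 for OsLEA14 (0.0156), -1.46 ± 0.342 for DHN1 unigene 2 (0.0226) and -2.59 ± 0.698 for Lea14-A unigene 2 (0.0404). The SAG21, ASR3 and Lea14-A unigene 1 calls held in every alternative. OsLEA14 missed the threshold with a pseudocount of 0.1 (0.0692). It was tested only because of its NaCl values, so it lends no support to the count (limma adjusted p = 0.0146 with no filter on low values). DHN1 unigene 2 missed it without untreated library 2 or 3, spermidine library 1, NaCl library 1 or spermidine+NaCl library 3 (0.0534 to 0.0633), and Lea14-A unigene 2 in 12 alternatives (up to 0.103), among them leaving out any library except spermidine library 3 and spermidine+NaCl library 1. DHN1 unigene 1 had a difference of -1.19 that missed the threshold (0.0728, or 0.00864 without spermidine+NaCl library 1), and dehydrin 13 unigene 2 of -0.99 (0.0669, or 0.0228 without spermidine+NaCl library 3).

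No SALT unigene was called in the interaction. For SALT-like unigene 1 the change with NaCl was -1.75 without spermidine and -2.12 ± 0.214 with it (limma adjusted p = 0.000464), and the 95% interval of the difference ran from -1.04 to 0.31. For SALT-like unigene 2 the corresponding changes were -2.01 and -1.67 ± 0.256 (limma adjusted p = 0.00373), with an interval from -0.46 to 1.15. SALT unigene 1 fell by 0.76 and by 0.62 on the log2 scale (limma adjusted p = 0.0241 with spermidine), with an interval from -0.30 to 0.57, and SALT unigene 4 rose by 1.89 and 1.41 (0.0223), with an interval from -1.45 to 0.49. The smallest of these 4 intervals still allowed a difference of 0.57, so equal responses are not shown. SALT-like unigene 3 had changes of -2.82 and -1.69 ± 0.321 (limma adjusted p = 0.0109), and its interval of 0.12 to 2.14 lay above 0 before adjustment over unigenes (adjusted p = 0.153, called without spermidine+NaCl library 1 at 0.0115). SALT unigene 3, tested only because of the groups without NaCl, had changes of -1.68 and -0.79 ± 0.229 (limma adjusted p = 0.0731). Its interval of 0.173 to 1.615 also lay above 0 before adjustment (limma adjusted p = 0.115). For SALT unigene 2 the interval ran from -0.646 to 0.475.

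**Figure D5:**
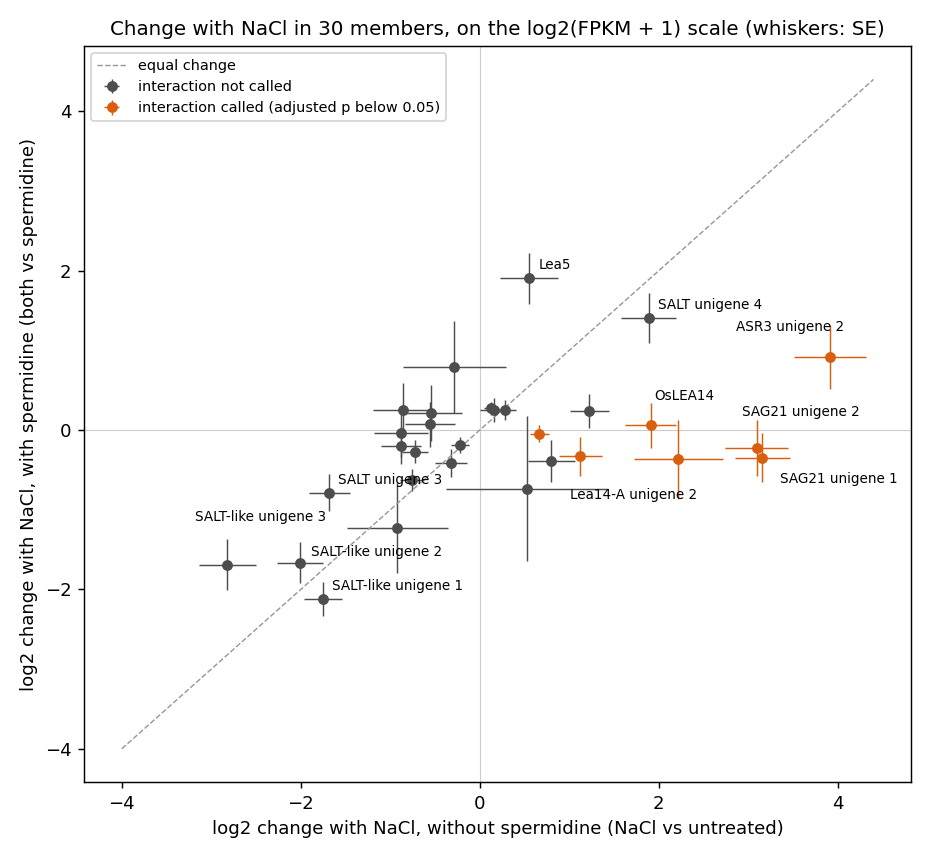
Log2 change with NaCl without spermidine (horizontal axis) against that with spermidine (vertical axis) for the 30 tested members, with whiskers of 1 SE and a dashed line of equal change. The 7 orange members, called in the interaction, lie below the line, the SAG21 unigenes near 3 on the horizontal axis and just under 0 on the vertical one, while SALT-like unigenes 1 and 2 and SALT unigene 4 lie near the line.

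Salt in the presence of spermidine called 6 of 30 members, 2 higher and 4 lower, beside 6.93% of all unigenes tested (2.60% higher and 4.33% lower). In number the latter were 1712 higher and 2848 lower. Of the 41491 with an Oryza hit, 5.28% were called, 1389 higher and 803 lower, or 953 and 832 when scaled and tested alone. Before adjustment, 10 members had a limma p below 0.05, beside 13548 of all 65836 unigenes. Salt without spermidine had called 16, and these comparisons share no libraries. The calls common to both with the same direction were 5, which is 31.2% of the calls without and 83.3% of those with spermidine. They were SALT unigene 1 and SALT-like unigenes 1 to 3, lower, and SALT unigene 4, higher. SALT unigene 4 was tested only because of the groups with NaCl, so it lends no support to this overlap. The same share over all unigenes was not computed, so the overlap is given as a description. The sixth with spermidine was the Lea5 unigene, described above. The call of SALT unigene 1 was lost without spermidine library 1 or 3 or spermidine+NaCl library 2 or 3 (adjusted p 0.0614 to 0.0954). That of SALT unigene 4 was lost without spermidine library 2 or 3 or spermidine+NaCl library 1 or 2 (0.0611 to 0.089), and that of SALT-like unigene 3 without spermidine library 3 (0.0525). The count of 6 was 3 without spermidine library 3 and 1 where the fit held only these 2 groups.

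Roots with both treatments differed from untreated roots in 6 members, 2 higher and 4 lower. This stood beside 5.37% of all unigenes tested (2.38% higher and 2.99% lower) and 4.54% of those with an Oryza hit. An unadjusted limma p below 0.05 was found for 12 members, beside 12689 of all 65836 unigenes. Lower were SALT unigene 1 (-0.94 ± 0.139, limma adjusted p = 0.00625) and SALT-like unigene 1 (-1.90 ± 0.214, limma adjusted p = 0.00226). SALT-like unigene 2 changed by -1.78 ± 0.256 (limma adjusted p = 0.00572) and SALT-like unigene 3 by -1.50 ± 0.321 (0.0253), the latter lost without any of the untreated libraries (0.0618 to 0.102). SALT unigene 4 was higher by 1.70 ± 0.309 (limma adjusted p = 0.0133, but 0.0542 without untreated library 1 and 0.0584 without spermidine+NaCl library 2). It was tested only because of the groups with NaCl, where it was high. The count of 6 was 3 without untreated library 1 and 2 where the fit held only these 2 groups. No SAG21, Lea14-A, DHN1 or ASR3 unigene was called here, and for SAG21 unigene 1 the means were 15.3 ± 3.30 and 14.3 ± 5.74 FPKM.

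The 23 members below the level for testing had means of 0.008 to 0.983 FPKM. They included a second Rab16D unigene, Rab16C, Rab25, the 11 kDa group 1 LEA protein and 8 unigenes with a hit to LOC4334748 or OsJ_13328. The highest single value was 11.8 FPKM, for a D-34 type unigene listed in spermidine+NaCl library 1 and at 0 in the other 11. A second OsLEA14 unigene was listed at 1.51, 1.6 and 3.91 FPKM with NaCl, at 0 in all untreated libraries, at 0, 0.13 and 0 with spermidine, and at 0.86, 0 and 0.21 with both. It was the only 1 of the 23 with every NaCl library above every untreated one. The same count was not made over all unigenes, so this is only a description.

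Other genes of drying and cold were listed by words such as EARLY RESPONSIVE TO DEHYDRATION (ERD), stress-associated protein and cold-induced protein. They were called in 45.4% of cases with NaCl, beside 22.9% of all unigenes tested and 27.1% of those with an Oryza hit, which all listed genes had. Of 108 tested, 30 rose and 19 fell with NaCl (31 and 13 with median-ratio scaling), with a median log2 change of 0.015 beside -0.129 over all unigenes. The most abundant was an ERD15 unigene, whose Arabidopsis namesake is an early drought-response protein, at 354 ± 62.0 FPKM in untreated roots, 569 ± 113 under spermidine, 1830 ± 218 with NaCl and 634 ± 372 with both (log2 change with NaCl 2.38 ± 0.333, limma adjusted p = 0.000587). A second unigene of that description went the other way, with 267 ± 10.9, 226 ± 4.22, 86.2 ± 5.88 and 196 ± 6.17 FPKM in the same order. An ERD7 unigene held 9 ± 1.32, 12.2 ± 1.84, 133 ± 29.1 and 12.9 ± 2.94 FPKM, a pattern like that of SAG21 (log2 change with NaCl 3.73 ± 0.194, limma adjusted p = 2.57e-06, and -3.27 ± 0.194 when spermidine was added, limma adjusted p = 8.11e-06). OsSAP18 had means of 5.34 ± 0.416, 5.27 ± 1.05, 1.03 ± 0.191 and 3.78 ± 0.265 FPKM.

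In the same list, 16 were higher and 20 lower with both treatments than with NaCl (6 and 22 with median-ratio scaling, 21 and 19 with Oryza-hit unigenes alone). In this comparison 15.8% of all unigenes and 19.3% of those with an Oryza hit were called. The interaction called 11 higher and 19 lower (4 and 21, and 13 and 19, with the same scalings), where 10.9% of all unigenes and 12.1% of those with an Oryza hit were called. Without NaCl library 1 the 36 calls of the first comparison were 23 and the 30 calls of the interaction were 19. Spermidine alone gave 0 calls with limma and 8 at an unadjusted p below 0.05, which 8571 of all 65836 unigenes reached.

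Genes of ABA synthesis, perception and signalling, which act upstream of many LEA genes, also moved in both directions. Of 83 tested, 21 rose and 14 fell with NaCl (21 and 21 with Oryza-hit unigenes alone). These calls were 42.2% of the list, beside 22.9% of all unigenes tested and 27.1% of those with an Oryza hit, from which the list was drawn. With both treatments against NaCl, 11 were higher and 19 lower (4 and 21 with median-ratio scaling, 20 and 20 with Oryza-hit unigenes alone). This was 36.1%, beside 15.8% of all unigenes and 19.3% of those with an Oryza hit. The interaction called 7 and 13 (3 and 17, and 9 and 17, with the same scalings), or 24.1% beside 10.9% of all unigenes and 12.1% of those with an Oryza hit. limma gave 0 with spermidine alone and 6 at an unadjusted p below 0.05, which 8571 of all 65836 unigenes reached. A pair of unigenes with a hit to NCED4, an enzyme of ABA synthesis, had means of 23.3 ± 5.43 and 23.3 ± 1.73 FPKM with NaCl and below 1 FPKM in each of the other 3 groups. The most abundant ABA receptor unigene, of the PYL4 type, went the other way, at 752 ± 35.0, 670 ± 57.8, 250 ± 31.2 and 518 ± 51.9 FPKM.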

How the data were processed

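Poly-A RNA of rice roots was measured in 12 libraries. The authors deposited a table of FPKM values for 182689 unigenes with protein hits. CASAVA 1.8, Bowtie2 and RSEM were used, per the submitters' processing notes, with their roles, the assembly and filters not given in the sources used here. All sample columns were mapped to libraries (0 were not). FPKM keeps no read counts, so depth is unknown and no counting interval is given.

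The 65836 unigenes averaging 1 FPKM or more were tested as log2(FPKM + 1), a scale on which changes at low levels look smaller. A model of 4 group means was fitted with limma 3.58.1 (R 4.3.3) and mean-dependent empirical Bayes variances, two-sided, with Benjamini-Hochberg adjustment over all unigenes within each of 6 comparisons (calls below 0.05). The procedure was tested on simulated data. Errors are SD (n = 3) for means and SE for log2 changes. Members and lists were chosen with earlier results of these data known. Members called in a comparison or reaching a mean of 5 FPKM in a group are given by library or range; from other lists, the most abundant unigene and up to 2 called per direction. Alternatives were the pseudocount, the filter, the scaling, the groups in the fit, the replicate number as a block and leaving out each library. Values of a few members are not reported here and stay in the counts, medians and totals over all members. No sequence was used here, and the RefSeq table (ASM3414082v1) gave gene names and neighbours only.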

Additional observations from a re-analysis of the deposited data

Results flagged for a closer look

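For 7 of 30 members tested, limma's interaction test called a difference in the response to NaCl between roots with and without spermidine. With the same Benjamini-Hochberg adjustment, 10.9% of all unigenes tested were called (4.18% higher and 6.68% lower). The change with NaCl in the presence of spermidine minus that in its absence, on the log2(FPKM + 1) scale, was -3.50 for SAG21 unigene 1 and -3.32 for SAG21 unigene 2, which share a best hit. It was -2.99 for ASR3 unigene 2. For the LEA members OsLEA14, Lea14-A unigene 2 and Lea14-A unigene 1 it was -1.85, -2.59 and -0.71, and for the dehydrin DHN1 unigene 2 it was -1.46. In each of the 7 the 3 NaCl libraries lay above the 3 untreated libraries and above the 3 libraries with both treatments. The same libraries gave the interaction calls, so this order describes them and is no separate support. OsLEA14 was tested only because of its NaCl values. Lea14-A unigene 2 lost its call in 12 of 19 alternatives, DHN1 unigene 2 in 5 of 19 and OsLEA14 in 1 of 18.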

How the results depend on the processing

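No called value of a member reversed. Of 46 called values, 26 held in every alternative, 16 were lost where the fit held only the groups compared, 14 on leaving out a library, 6 with a pseudocount of 0.1, 2 with quantile normalization and 1 with median-ratio scaling, and 19 values below the threshold passed it in some alternative. With only the groups compared, fewer libraries estimate the spread, and the members called fell from 11 to 4 for both treatments against NaCl, from 6 to 2 against untreated roots and from 6 to 1 against spermidine, and the desiccation and cold genes called against NaCl from 36 to 19. With a filter of mean 5 FPKM, fewer members were tested and these counts were 7 against NaCl and 3 against spermidine. Leaving out each library in turn gave 15 to 18 members for NaCl against untreated roots, 0 to 2 for spermidine, 6 to 11 for both against NaCl, 3 to 7 against untreated roots, 3 to 7 against spermidine and 5 to 9 in the interaction. For the desiccation and cold genes it gave 23 to 40 against NaCl and 19 to 36 in the interaction. The cause was not tested. With the replicate number as a block, the members called were 10 higher and 7 lower with NaCl, 0 with spermidine, 2 and 8 for both against NaCl, 1 and 5 against untreated roots, 2 and 3 against spermidine and 0 and 8 in the interaction; 3 called values were lost and 3 gained. Whether the numbers pair the libraries is not stated, and these values do not settle it. Correlations of deviations between the 18 same-numbered pairs ran from -0.109 to 0.147, and 2 were over 0.1. Between libraries of other numbers they ran from -0.1 to 0.0978. Of 12 libraries, 2 correlated best with their own number. With 3 libraries a group and unknown read depth, small changes of unigenes near 1 FPKM were not detectable.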
